A study of Mus musculus with 10 samples.

Results

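The 43 genes described here encode the core of the DNA replication machinery and its supply of nucleotides and new histones. They were chosen by name from the gene identifiers of the count tables, with earlier results of these data known. Their shares beside those of all genes are therefore descriptions and not tests. All 43 were found among the 53656 genes of each table, and all 43 passed the filter on low counts, which left 14214 genes to test. Their RNA was compared between TOX-deficient (TOX KO) and TOX-sufficient (TOX WT) CD4 T cells.

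DNA is copied once per cell division. In G1 phase the origin recognition complex, Cdc6 and Cdt1 load the ring-shaped MCM helicase onto DNA. In S phase Cdc45 and the GINS complex turn the loaded ring into an active helicase, primase and the DNA polymerases copy both strands, and the clamp PCNA with its loader RFC keeps the polymerases on the template. Many of these genes are transcribed by E2F factors at the G1/S border, and in lymphocytes they are known as markers of clonal expansion, since a resting T cell does not copy its DNA.

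TOX is an HMG-box nuclear protein known for its role in T cell differentiation. The libraries came from SMARTA cells, transgenic CD4 T cells whose receptor sees the GP61 peptide, transferred as naive cells into B6 hosts that had been given cytoxan (cyclophosphamide) and carried B16-GP61, a melanoma line with that peptide. Cells were sorted 11 days after transfer from the tumour-draining lymph node (tdLN), and the labels describe hosts that received WT and KO cells together. All groups shared the receptor, the host, the tumour and the drug. The 6 KO libraries were CD4+ Ly5.1+ Ly5.2- cells with low PD1, LAG3 and CD39, and the 4 WT libraries were CD4+ Ly5.1+ Ly5.2+ cells with high PD1, LAG3 and CD39. Genotype and sort gate therefore cannot be told apart in any value that follows. How Tox was inactivated, the age of the mice and whether libraries came from separate animals are not given in the sources used here, so p-values measure the spread between libraries, which may be technical. A library is named below by its genotype and the replicate number of its title.

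The libraries held 31939816 to 55784453 counted read pairs. Tox itself was at 169.9 to 357.2 CPM (counts per 1000000 counted read pairs, scaled by TMM factors) in WT and 15.3 to 67.95 CPM in KO, with no overlap. WT replicate 1 stood apart from the other WT libraries, with 0.815% of its counts in immunoglobulin genes against 7.37% to 16.7% in the others. All KO libraries lay between 0.0835% and 0.187%. WT replicate 1 also had counts for the fewest genes, 14365, against 19101 to 19775 in the other WT libraries. KO replicates 1 to 3 had counts for 15163 to 15873 genes and KO replicates 4 to 6 for 16348 to 17304. The part of these differences in the values below was not tested. T cell markers (Cd3e, Cd3d, Cd3g, Cd4, Cd28, Trac) summed to 5925 to 12930 CPM in WT and 11030 to 17920 CPM in KO. B cell markers summed to 2697 to 10240 CPM in WT and 76.8 to 322 CPM in KO. Of these 10 genes, 7 passed the test as lower in KO (70.0%, against 2.70% of all genes tested). The 7 plasma cell markers had a median log2 fold change of -3.79, with 6 negative and 2 past the test as lower, and summed to 986.7 to 5944 CPM in WT and 109.6 to 986.5 CPM in KO. All 12 myeloid and dendritic cell markers were negative, with a median of -4.97 and 2 past the test, and summed to 1541 to 6884 CPM in WT and 142.4 to 341.3 CPM in KO. The sums of the B cell and myeloid lists did not overlap between genotypes, and those of the plasma cell list nearly met. Of the 7 plasma cell markers, 4 had every KO library below every WT library (57.1%, against 6.31% of all genes tested). They were Jchain, Sdc1, Prdm1 and Mzb1, while Xbp1, Derl3 and Txndc5 overlapped. Xbp1, the positive one, was at 49.9 to 475.9 CPM in WT and 57.8 to 715.3 CPM in KO. The 3 median fold changes lay further below 0 than that of the replication genes given below. Germinal centre B cells also divide, and of their markers S1pr2, Gcsam, Mef2b and Fas, 3 were negative (median -1.97). None of these 4 passed edgeR's test, 2 were lower at an unadjusted p under 0.05, and DESeq2 called 2 lower and limma-voom 0. Their level with Mybl1 and Rgs13 summed to 110.6 to 224.3 CPM in WT and 112.7 to 153.7 CPM in KO. The genes in that sum differed. S1pr2 was at 34.3 to 112.7 CPM in WT and 62.9 to 115.2 CPM in KO, and Fas at 35.3 to 76.2 and 12.2 to 41.55 CPM. Gcsam was at 1.52 to 27.8 CPM in WT and 0 to 3.72 CPM in KO, and Mef2b at 7.62 to 57.85 and 0 to 10.4 CPM. Of 5 CD8 T and NK cell markers, 4 had enough counts to test, with 3 negative and a median log2 fold change of -1.32. Klrb1c passed as higher in KO, and the negative ones, Cd8a, Cd8b1 and Ncr1, did not pass. Of 6 melanoma markers only 1 had enough counts to test, and it did not pass.

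The 5 genes that passed the test as lower in KO were Cdc45, Prim1, Rfc4, Tyms and Tk1, and the windows around their transcription start are shown because E2F regulation is the textbook feature of this gene group. Each line gives 250 bases before and 20 bases after the RefSeq gene start on GRCm38.p6, read 5′ to 3′ on the gene's own strand, with matches to an E2F motif in capitals. The letters searched were TTCCCGC or TTCGCGC or TTGCCGC or TTGGCGC on both strands. The windows are, in order, chr16:18811953-18812222 (minus strand), chr10:128014965-128015234 (plus), chr16:23127711-23127980 (minus), chr5:30073606-30073875 (minus) and chr11:117825995-117826264 (minus).
Cdc45: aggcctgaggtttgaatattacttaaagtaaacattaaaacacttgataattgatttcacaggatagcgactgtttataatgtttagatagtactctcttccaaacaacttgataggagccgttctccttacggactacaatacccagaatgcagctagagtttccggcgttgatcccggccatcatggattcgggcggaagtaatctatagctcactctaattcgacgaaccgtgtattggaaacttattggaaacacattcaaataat
Prim1: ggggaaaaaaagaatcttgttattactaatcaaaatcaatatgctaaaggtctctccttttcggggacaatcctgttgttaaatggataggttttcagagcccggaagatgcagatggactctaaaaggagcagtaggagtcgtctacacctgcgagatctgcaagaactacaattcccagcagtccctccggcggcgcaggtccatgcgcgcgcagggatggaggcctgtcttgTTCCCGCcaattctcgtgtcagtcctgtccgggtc
Rfc4: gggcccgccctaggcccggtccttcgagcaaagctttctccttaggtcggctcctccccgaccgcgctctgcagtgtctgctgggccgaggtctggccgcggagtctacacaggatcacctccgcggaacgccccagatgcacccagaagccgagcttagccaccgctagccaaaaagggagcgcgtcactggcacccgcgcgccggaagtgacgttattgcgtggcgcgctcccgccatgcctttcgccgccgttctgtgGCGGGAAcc
Tyms: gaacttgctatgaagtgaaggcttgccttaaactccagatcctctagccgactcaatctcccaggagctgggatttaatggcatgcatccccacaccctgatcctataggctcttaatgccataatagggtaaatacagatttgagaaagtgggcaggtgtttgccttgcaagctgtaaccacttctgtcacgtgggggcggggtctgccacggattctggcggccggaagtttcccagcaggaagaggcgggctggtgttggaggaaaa
Tk1: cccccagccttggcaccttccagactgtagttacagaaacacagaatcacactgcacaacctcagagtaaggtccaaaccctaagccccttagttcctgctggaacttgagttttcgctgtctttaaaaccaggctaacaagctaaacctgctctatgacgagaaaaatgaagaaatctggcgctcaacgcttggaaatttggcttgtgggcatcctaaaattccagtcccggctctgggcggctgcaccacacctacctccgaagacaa

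The Prim1 window held 1 match, beginning 15 bases before the gene start, and the Rfc4 window held 1 match, beginning 11 bases after it. No such letters stood in the windows of Cdc45, Tyms and Tk1, which says nothing of the factor itself. RefSeq promoter windows of 300 bases were at hand for 36 of the 43 genes, with 41 entries in all. An E2F match was in 25 of the 41 entries (61.0%), against 3145 of 32851 windows of all genes (9.6%). The windows of all genes were not limited to the 14214 genes tested here, so these shares are no comparison with expressed genes. CCAAT boxes (CCAAT, both strands) were in 24 of 41 entries (58.5%) against 37.4% of all windows. The CHR element of genes expressed later in the cell cycle (TTTGAA or TTCGAA, both strands) was in 7 of 41 (17.1%), against 19.2% of all windows.

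The summed level of the 43 genes was 5288, 3817, 4006 and 4529 CPM in WT replicates 1 to 4, and 2462 to 3477 CPM in KO, so every KO library lay below every WT library. The fold change was negative for 35 genes (81.4%) against 54.3% of all genes tested, and the median log2 fold change, coded KO minus WT, was -1.02 against -0.12 for all genes. By edgeR's quasi-likelihood test with p-values adjusted over all 14214 genes, 5 of 43 were lower (11.6%, background 2.70%) and 0 were higher (background 0.429%). At an unadjusted p under 0.05, edgeR had 22 lower (51.2%, against 10.8% of all genes) and 0 higher (against 7.15%). At that unadjusted threshold DESeq2 had 0 higher and limma-voom 1, and after adjustment both called 0 higher. In bulk RNA, fewer cells of a type and less RNA per cell cannot be told apart. The levels of B cell, plasma cell and myeloid markers differed with genotype as given above, and their part in the lower replication levels was not tested.

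**Figure D1:**
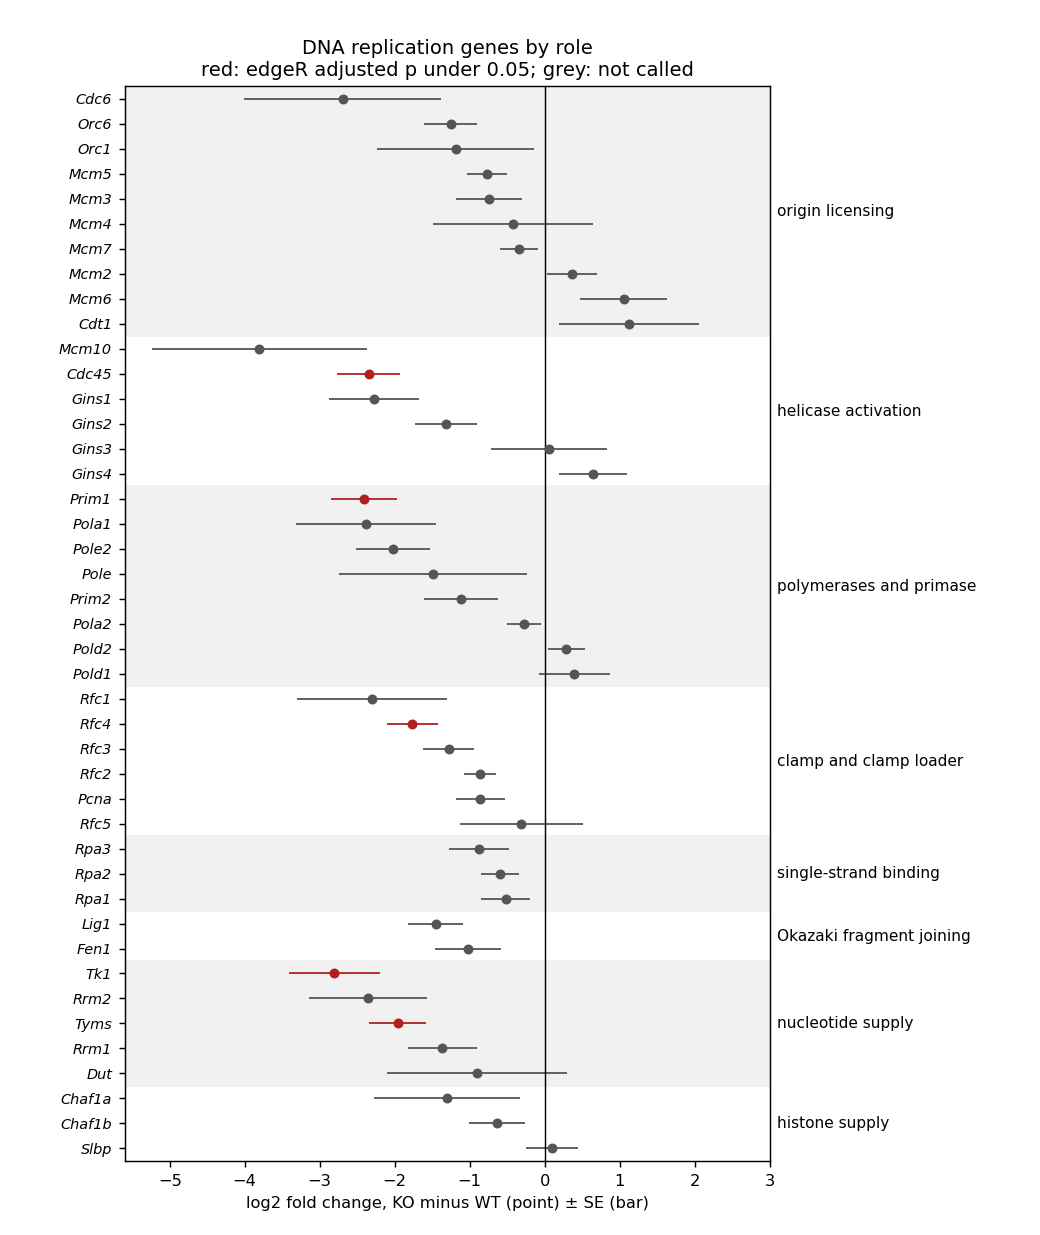
Log2 fold change (KO minus WT, x axis) of each of the 43 genes, grouped by role, with SE as the bar; red points have an edgeR adjusted p under 0.05. The 5 red points lie between -2.80 (Tk1) and -1.77 (Rfc4), and 35 of 43 points lie left of 0.

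Every KO library lay below every WT library for 14 of 43 genes (32.6%, against 6.31% of all genes tested), and no gene had every KO library above every WT library (background 2.59%). The 14 were Orc6, Mcm5, Mcm10, Cdc45, Prim1, Prim2, Pole2, Rfc2, Rfc3, Rfc4, Fen1, Lig1, Tyms and Tk1. Exons of Orc6, Rfc2, Fen1 and Lig1 overlap genes on the opposite strand, as do those of Cdc45, Rfc4 and Tk1 described below, so reads there cannot be told apart by strand. The 14 come from every step except single-strand binding and histone supply. DESeq2, run as an alternative, called 15 of 43 lower (34.9%, background 7.22%), among them the 5 genes named above. Within library numbers 4 to 8 alone (3 KO and 3 WT libraries), the test called 3 of 43 lower, Cdc6, Cdc45 and Prim1, which is 7.0% against a background of 7.18% and so no more than the share of all genes.

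**Figure D2:**
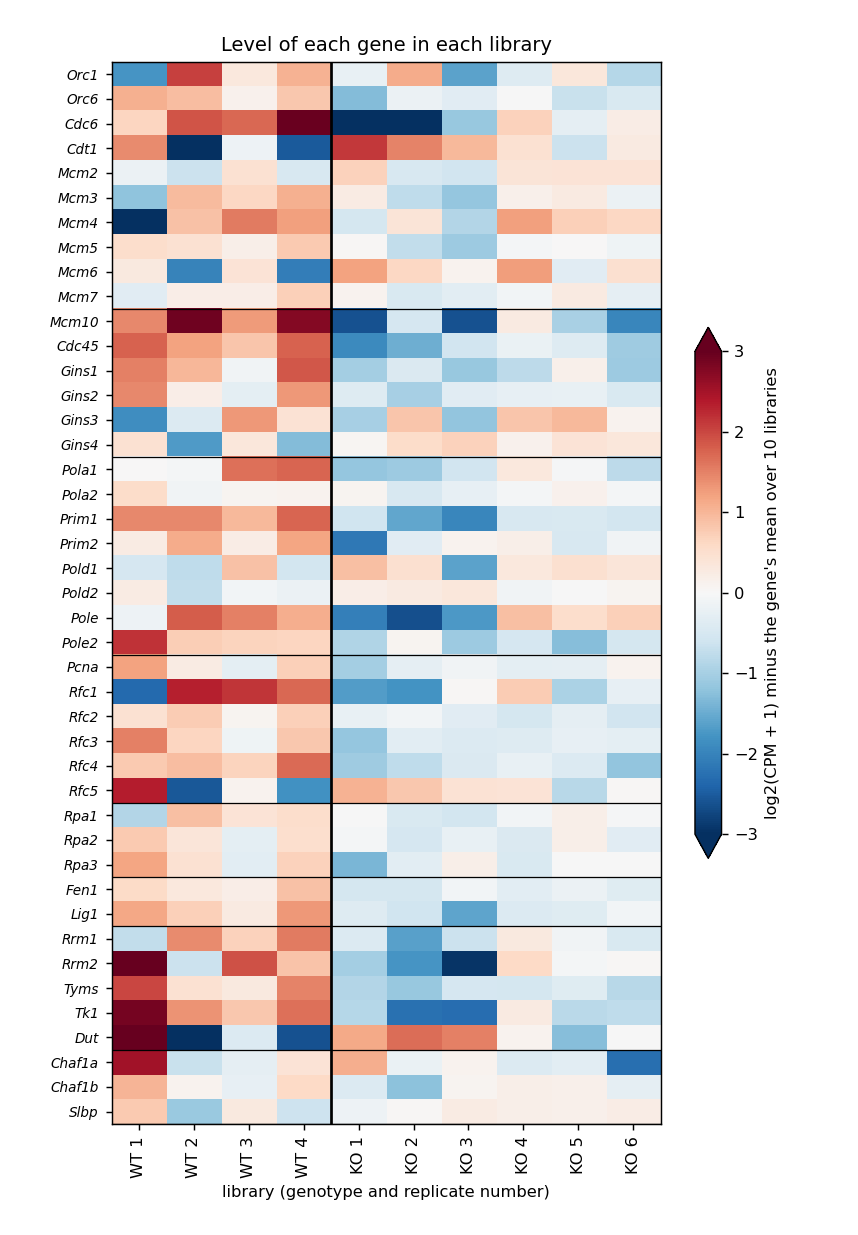
Level of each gene (rows, by role) in each library (columns), as log2(CPM + 1) minus the gene's mean over the 10 libraries. Cdc45, Prim1, Rfc4, Tyms and Tk1 are above their mean in all 4 WT libraries, while Dut, Rfc5 and Mcm6 differ more among WT libraries than between the genotypes.

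Origin licensing, the step that marks where replication can begin, had no gene past edgeR's test among its 10, with a median log2 fold change of -0.58. At an unadjusted p under 0.05, edgeR had 2 of the 10 lower and 0 higher, while limma-voom had 1 higher. After adjustment DESeq2 called 1 lower and limma-voom 0. Orc1, the largest subunit of the origin recognition complex, was at 0.145, 15.2, 3.91 and 7.07 CPM in WT replicates 1 to 4 and at 0.295 to 7.52 CPM (median 2.19) in KO. Cdc6, the ATPase that joins the complex to load the helicase, was at 16.3, 39.7, 35.6 and 85.7 CPM in WT and at 0 to 16.9 CPM (median 6.13) in KO. The groups overlapped for both genes, since Orc1 was low in WT replicate 1 and Cdc6 was higher in KO replicate 4 than in WT replicate 1. For Cdc6 the log2 fold change was -2.69 ± 1.31 (SE) (adjusted p = 0.314). In KO replicate 2 Cdc6 had 0 counts, which allows up to 3 counts or 0.0637 CPM, a limit that covers counting error only.

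Cdt1, the helicase loading factor that is destroyed once S phase starts, gave 90.01, 2.23, 29.9 and 4.96 CPM in WT and 21.1 to 148 CPM (median 55.8) in KO. WT replicates 2 and 4 lay below every KO library and WT replicate 1 within the KO range, so the log2 fold change of 1.12 ± 0.93 (SE) did not pass (adjusted p = 0.563). Its inhibitor geminin is among the genes outside the group described further down.

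The 6 MCM subunits form a ring with 1 copy of each, and none passed the test in either direction. Mcm2 was at 206, 149, 319 and 165 CPM in WT and at 156 to 377 CPM (median 308) in KO, with overlapping groups (log2 fold change 0.37 ± 0.34 SE). Mcm5 was at 448, 425, 352 and 537 CPM in WT and 147 to 319 CPM (median 292) in KO. Every KO library lay below every WT library for Mcm5, the only MCM subunit of which this held, though its test did not pass (log2 fold change -0.77 ± 0.27 SE, adjusted p = 0.172). Mcm3, Mcm4 and Mcm7 had negative fold changes of -0.74, -0.42 and -0.34, and Mcm6 a positive one of 1.06. The summed MCM level was 1045 to 1487 CPM in WT and 697 to 1439 CPM in KO, so the ring as a whole overlapped between genotypes.

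Per length of all annotated exons, the subunits stood at unequal levels. The length of the RNA that was made was not measured, so the order of the subunits may depend on the annotation. Exons of Mcm7 also overlap those of Ap4m1 and Cops6 on the opposite strand. In RPKM, which is CPM per kilobase of exon, the WT mean ± SD (n = 4) was 110.3 ± 19.1 for Mcm5, 63.02 ± 31.6 for Mcm3, 53.9 ± 15.9 for Mcm7, 30.1 ± 11.01 for Mcm2, 21.8 ± 17.4 for Mcm6 and 19.4 ± 13.9 for Mcm4. In KO it was 64.8 ± 18.4 for Mcm5, 45.4 ± 18.8 for Mcm6, 42.5 ± 8.26 for Mcm7, 38.9 ± 12.8 for Mcm2, 37.8 ± 13.7 for Mcm3 and 14.5 ± 7.22 for Mcm4. Mcm5 had the highest mean and Mcm4 the lowest in both genotypes, though in WT Mcm4 and Mcm6 differed by less than their SD. In KO the means of Mcm6, Mcm7, Mcm2 and Mcm3 lay within 1 SD of each other, so their order is not a result. In WT replicate 1 Mcm4 was at 0.0483 CPM, which is 2 read pairs, where the other WT libraries held 71.1 to 115.2 CPM, while Mcm5 in the same library was at 448 CPM.

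**Figure D3:**
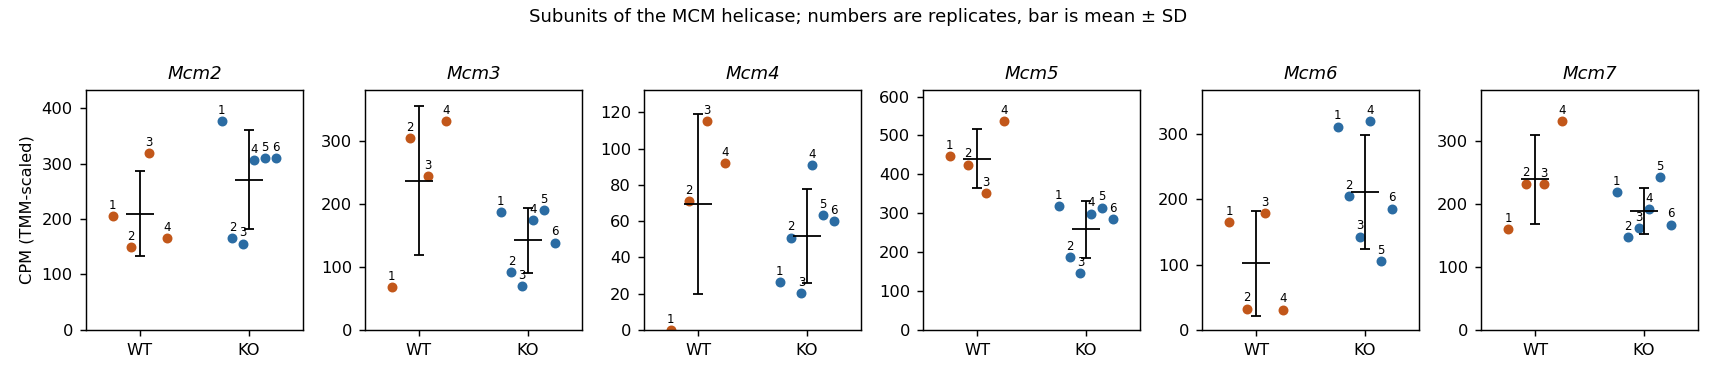
CPM of the 6 MCM subunits in each library (numbered points are replicates), with the mean ± SD of the 4 WT and 6 KO libraries. The groups separate for Mcm5 only, and the Mcm4 point of WT replicate 1 lies at 0.0483 CPM.

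Helicase activation held the gene with the lowest p of the group. Cdc45, which joins the MCM ring and GINS to make the active helicase, lies on chromosome 16 (18780447 to 18811987, minus strand, GRCm38). It was at 89.7, 60.7, 46.4 and 90.3 CPM in WT replicates 1 to 4 and at 6.099 to 22.0 CPM (median 14.2) in KO. All KO libraries lay below all WT libraries, with WT replicates 1 and 4 highest. The mean was 71.8 ± 21.8 CPM in the 4 WT libraries and 14.1 ± 6.25 CPM in the 6 KO libraries (SD, n = 4 and 6), and the log2 fold change was -2.35 ± 0.42 (SE) (edgeR adjusted p = 0.0147). Cdc45 shares exon positions with Ufd1l on the opposite strand, and the counting set no strand option. Ufd1l was at 82.2, 147, 87.8 and 134 CPM in WT and 70.4 to 112 CPM (median 93.6) in KO, and its log2 fold change of -0.31 ± 0.27 (SE) did not pass.

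Mcm10, a scaffold of helicase activation, was at 15.6, 44.8, 13.9 and 40.3 CPM in WT and at 0 to 6.34 CPM (median 1.33) in KO. It had 0 counts in KO replicates 1 and 3, which allow up to 0.0851 and 0.0554 CPM, and no KO library reached the WT range. Its log2 fold change of -3.80 ± 1.43 (SE) was the lowest of the 43 but its SE was also the largest, and it did not pass (adjusted p = 0.199). Of the GINS complex, Gins2 was at 49.7, 20.6, 14.4 and 44.8 CPM in WT and 8.39 to 14.99 CPM (median 13.5) in KO, with WT replicate 3 inside the KO range (log2 fold change -1.32 ± 0.41 SE, adjusted p = 0.131). The other 3 GINS genes had log2 fold changes of -2.28 for Gins1, 0.06 for Gins3 and 0.65 for Gins4. None of the 4 passed, and the sign for Gins3 depended on the scaling (-0.02 with RLE factors).

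**Figure D4:**
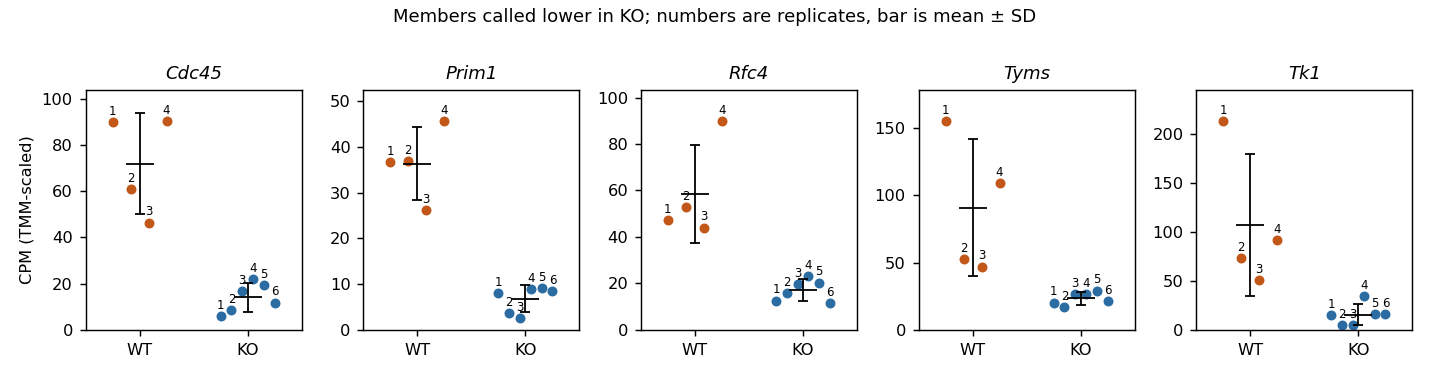
CPM of the 5 genes called lower in KO, in each library (numbered points are replicates), with the mean ± SD of 4 WT and 6 KO libraries. No KO point reaches a WT point in any panel, and WT replicate 3 is the lowest WT library in all 5.

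Of the 8 genes for primase and the replicative polymerases, Prim1 passed. Prim1, the catalytic subunit of primase, which lays down the RNA primer of each new fragment, lies on chromosome 10 (128015168 to 128030037, plus strand). It was at 36.6, 36.9, 26.1 and 45.6 CPM in WT and at 2.55 to 9.13 CPM (median 8.32) in KO. The lowest WT library, replicate 3, lay well above the highest KO library. The mean was 36.3 ± 7.98 CPM in the 4 WT libraries and 6.83 ± 2.92 CPM in the 6 KO libraries (SD, n = 4 and 6), and the log2 fold change was -2.41 ± 0.44 (SE) (edgeR adjusted p = 0.017). Its partner Prim2, the regulatory subunit, showed no overlap either but did not pass (log2 fold change -1.12 ± 0.49 SE, adjusted p = 0.263).

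Pola1, the catalytic subunit of the polymerase that extends the primer, was at 1.55, 1.43, 6.84 and 7.46 CPM in WT and 0.114 to 2.11 CPM (median 0.567) in KO. WT replicates 1 and 2 fell inside the KO range, and the log2 fold change of -2.38 ± 0.93 (SE) did not pass (adjusted p = 0.211). Pold1, the catalytic subunit of the lagging-strand polymerase delta, was at 109, 91.99, 288 and 106 CPM in WT and 50.6 to 292 CPM (median 209) in KO, with WT replicate 3 far above the other WT libraries and KO replicate 3 far below the other KO libraries (log2 fold change 0.40 ± 0.48 SE, adjusted p = 0.706). Pole, the catalytic subunit of the leading-strand polymerase epsilon, was at 4.59, 20.9, 16.9 and 12.3 CPM in WT and 0 to 10.6 CPM (median 4.42) in KO. KO replicates 1 to 3 held at most 0.886 CPM of Pole, and KO replicates 4 to 6 held 7.95 to 10.6 CPM. Pole2, Pola2 and Pold2, the second subunits of these polymerases, had log2 fold changes of -2.02, -0.28 and 0.29. No KO library reached the WT range for Pole2, and the groups overlapped for the other 2.

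Among the sliding clamp and its loader, Rfc4 passed. Rfc4, a small subunit of the loader, lies on chromosome 16 (23113943 to 23127737, minus strand). It was at 47.2, 52.7, 44.01 and 89.9 CPM in WT and at 11.4 to 23.2 CPM (median 17.8) in KO. WT replicate 4 was the highest, and the lowest WT library still lay above every KO library. The mean was 58.5 ± 21.3 CPM in the 4 WT libraries and 17.2 ± 4.68 CPM in the 6 KO libraries (SD, n = 4 and 6), and the log2 fold change was -1.77 ± 0.34 (SE) (edgeR adjusted p = 0.0202). Its exons overlap those of Eif4a2 on the opposite strand, which was at 54.05, 232, 209.7 and 228 CPM in WT and 31.97 to 149 CPM (median 101) in KO (log2 fold change -0.84 ± 0.48 SE, not past the test). WT replicate 1 was within the KO range for Eif4a2 and above it for Rfc4.

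Rfc1, the large subunit of the loader, was at 0.29, 31.7, 27.8 and 20.6 CPM in WT and 0.892 to 10.02 CPM (median 3.43) in KO. It was below every KO library in WT replicate 1 and above every KO library in the other 3 (log2 fold change -2.30 ± 1.00 SE, adjusted p = 0.262). Pcna, the clamp itself, was at 231, 118, 80.4 and 165 CPM in WT and 48.6 to 107 CPM (median 81.9) in KO, where WT replicate 3 lay inside the KO range and the log2 fold change of -0.86 ± 0.33 (SE) did not pass (adjusted p = 0.206). The tables also list 2 Pcna pseudogenes, and reads that match several places were not counted, so the Pcna level is uncertain. Rfc2 and Rfc3, further small subunits of the loader, did not overlap between genotypes, with log2 fold changes of -0.86 and -1.28. Exons of Rfc2 overlap those of Lat2 on the opposite strand. The level of Lat2 was not taken, so its part in the Rfc2 counts was not tested. Rfc5 spanned 8.81 to 292 CPM within WT alone, a range that holds all 6 KO libraries.

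The single-strand binding complex RPA, which coats unwound DNA, had no gene past edgeR's test among its 3, with 1 lower at an unadjusted p under 0.05 and 0 called by DESeq2 or limma-voom. Rpa1, the largest subunit, was at 106, 372, 263 and 287 CPM in WT and 134 to 223 CPM (median 189) in KO, with WT replicate 1 below every KO library (log2 fold change -0.52 ± 0.32 SE). Rpa2 was at 288, 217, 137 and 238 CPM in WT and 119 to 189 CPM (median 139) in KO, with WT replicate 3 inside the KO range (log2 fold change -0.60 ± 0.26 SE). Rpa3, the smallest subunit, had a log2 fold change of -0.88, also with overlap.

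Both genes of Okazaki fragment joining separated the genotypes without passing edgeR's test, each with an unadjusted p under 0.05. DESeq2 called both of them lower and limma-voom 1. Fen1, the nuclease that trims the primer flap, was at 6.72, 5.39, 4.898 and 8.51 CPM in WT and 2.58 to 3.897 CPM (median 3.095) in KO (log2 fold change -1.02 ± 0.44 SE, adjusted p = 0.257). Lig1, the ligase that seals the nick, was at 68.6, 49.6, 36.3 and 74.9 CPM in WT and 9.31 to 28.5 CPM (median 22.6) in KO (log2 fold change -1.45 ± 0.36 SE, adjusted p = 0.0615). The lowest WT library was WT replicate 3 for both genes, and it still lay above the highest KO library.

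In nucleotide supply 2 of 5 genes passed the test (40.0%, against 2.70% of all genes tested), and the median log2 fold change was -1.96. That median is the value of Tyms, and helicase activation stood near it at -1.80. The 9 other nucleotide supply genes given below had a median of -0.68 with 0 called. Each role holds few genes, so the order of the roles is not a result. Tyms, thymidylate synthase, which makes dTMP from dUMP, lies on chromosome 5 (30058202 to 30073617, minus strand). It was at 155, 52.4, 47.1 and 109 CPM in WT and at 16.8 to 29.2 CPM (median 23.8) in KO. The KO libraries lay close together, while WT spanned a wider range with replicates 1 and 4 high. The mean was 90.96 ± 51.2 CPM in the 4 WT libraries and 23.4 ± 4.74 CPM in the 6 KO libraries (SD, n = 4 and 6), and the log2 fold change was -1.96 ± 0.38 (SE) (edgeR adjusted p = 0.0207).

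Tk1, the thymidine kinase of the salvage route to dTMP, lies on chromosome 11 (117815526 to 117826092, minus strand). It was at 213, 73.4, 50.7 and 91.3 CPM in WT and at 5.02 to 34.3 CPM (median 15.6) in KO. WT replicate 1 was highest and KO replicates 2 and 3 were lowest, with no overlap. The mean was 107 ± 72.7 CPM in the 4 WT libraries and 15.3 ± 10.7 CPM in the 6 KO libraries (SD, n = 4 and 6), and the log2 fold change was -2.80 ± 0.60 (SE) (edgeR adjusted p = 0.0322). Tk1 shares exon positions with Afmid on the opposite strand, which was at 19.04, 30.5, 21.5 and 22.1 CPM in WT and 9.36 to 28.7 CPM (median 19.4) in KO (log2 fold change -0.29 ± 0.37 SE, not past the test).

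Ribonucleotide reductase, which turns ribonucleotides into deoxyribonucleotides, was represented by its large subunit Rrm1 and its cell-cycle-regulated small subunit Rrm2. Rrm1 was at 61.8, 282, 170.2 and 309 CPM in WT and 33.3 to 128 CPM (median 77.4) in KO, with WT replicate 1 inside the KO range (log2 fold change -1.36 ± 0.46 SE, adjusted p = 0.158). Rrm2 was at 364, 26.6, 163 and 77.5 CPM in WT and 4.62 to 64.8 CPM (median 30.4) in KO, with WT replicate 2 inside the KO range (log2 fold change -2.35 ± 0.79 SE, adjusted p = 0.153). The subunits were thus low in different WT libraries. Dut, the dUTPase that keeps uracil out of DNA, was at 505, 2.11, 29.9 and 5.69 CPM in WT and 16.1 to 131 CPM (median 66.5) in KO. WT replicate 1 lay above every KO library, WT replicates 2 and 4 below every one and WT replicate 3 within their range. Its log2 fold change of -0.90 turned to 2.53 without WT replicate 1.

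Histone supply had no gene past edgeR's test among its 3, also at an unadjusted p under 0.05 or with DESeq2 or limma-voom. Chaf1a, the large subunit of the chromatin assembly factor that places histones behind the fork, was at 29.9, 2.396, 3.49 and 6.197 CPM in WT and 0.135 to 10.5 CPM (median 3.54) in KO (log2 fold change -1.30 ± 0.97 SE). Slbp, the protein that binds the stem-loop of histone mRNA, was at 302, 81.01, 216 and 114 CPM in WT and 158 to 210.2 CPM (median 198) in KO (log2 fold change 0.10 ± 0.35 SE). WT replicates 2 and 4 lay below every KO library for Slbp and WT replicates 1 and 3 above every one. Chaf1b, the middle subunit of the assembly factor, had a log2 fold change of -0.64 with overlapping groups.

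The WT libraries differed among themselves, and WT replicate 1 stood apart from the other 3 over the whole table. It was the highest WT library for 19 of the 43 genes (44.2%, against 36.2% of all genes tested) and above every KO library for 26 (60.5%, against 29.6%). It was below every KO library for 6 (14.0%, against 26.9%), namely Orc1, Mcm3, Mcm4, Gins3, Rfc1 and Rpa1. WT replicates 2 and 4 were both below every KO library for another 7 (16.3%, against 20.6%), namely Cdt1, Mcm6, Gins4, Pold2, Rfc5, Dut and Slbp. Neither of these shares is above that of all genes. WT replicate 3 was the lowest WT library for 19 genes (44.2%, against 20.8%) and lay below every KO library for none (against 15.0%).

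WT replicate 1 had the highest level of all 10 libraries for 16 of the 43 genes (37.2%, against 22.3% of all genes). It also had the lowest immunoglobulin share and the lowest B cell marker sum of the WT libraries, and counts for the fewest genes of all 10 libraries. These are values of a single library that stands apart. The part of other cell types, or of the fewer genes with counts, in the replication levels was not tested.

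**Figure D5:**
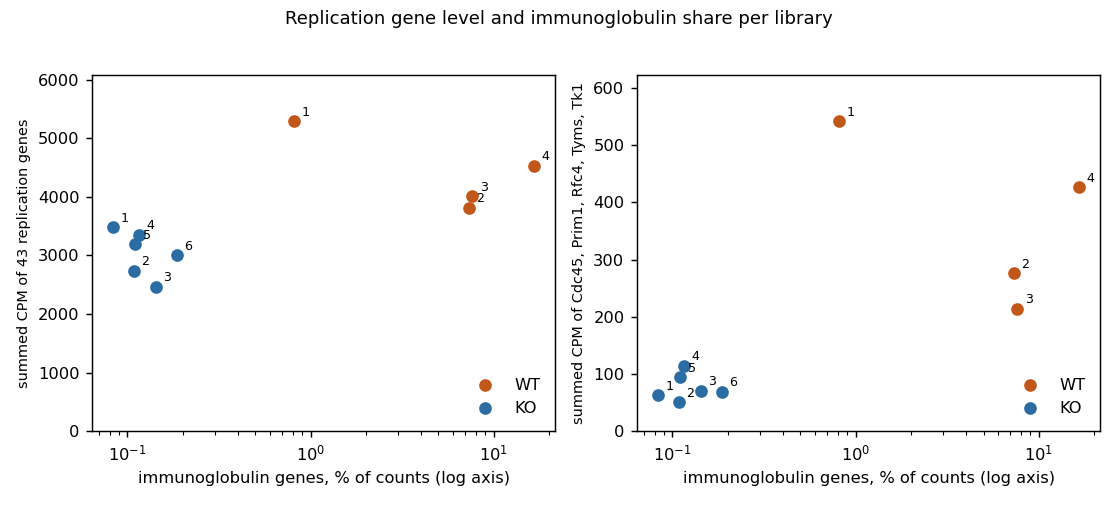
Summed CPM of the 43 genes (left) and of the 5 genes called lower, chosen because they were called (right), against the share of counts in immunoglobulin genes on a log axis. Numbered points are replicates. WT replicate 1 has 0.815% immunoglobulin counts and the highest sum in both panels, 5288 and 541.9 CPM.

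The summed level of Cdc45, Prim1, Rfc4, Tyms and Tk1 in WT replicate 1 was 541.9 CPM, against 276.1, 214.2 and 426.3 CPM in the other WT libraries and 50.1 to 114.8 CPM in KO.

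The KO libraries also fell into sets by library number, 1 to 3 against 4 to 8. KO numbers 1 to 3 all lay below 4 to 8 for 6 of 43 genes (14.0%, background 14.7%), which were Cdc6, Mcm4, Prim1, Pole, Rrm2 and Tk1. They all lay above for 5 (11.6%, background 17.2%), which were Cdt1, Pold2, Rfc5, Dut and Chaf1a. Both shares are near or below those of all genes, so they are no result about replication genes. Only WT replicate 1 belongs to the low numbers, so the sets hold 3 KO and 1 WT library, and 3 of each.

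The 5 calls depended on single libraries. Without WT replicate 4, 0 of the 43 genes passed edgeR's test (against 0.977% of all genes) and 13 were lower at an unadjusted p under 0.05. The share of all genes at that unadjusted threshold was not taken for this fit, so the 13 cannot be set against a background. The adjusted p was then 0.0685 for Cdc45, 0.0861 for Prim1, 0.117 for Rfc4, 0.0923 for Tyms and 0.0926 for Tk1. Without WT replicate 2, 2 genes passed (background 1.51%), and without KO replicate 1 or KO replicate 2, 2 passed in each case (background 1.87% in both). Without KO replicate 3, 3 passed (background 2.01%), and without KO replicates 4, 5 and 6 in turn, 5, 4 and 4 passed (background 2.06%, 2.00% and 2.35%). Without WT replicate 3, 11 passed (25.6%, background 2.80%). Without WT replicate 1, 9 passed (20.9%, background 7.90%), where the count over all genes went from 384 to 1201 and so grew more than that of the members. Cdc45 passed in 9 of the 10 fits that left out 1 library, Prim1 in 8, Tyms in 7, Rfc4 in 5 and Tk1 in 3.

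Genes of the same pathway outside the 43 were read from further lists. Of 15 other licensing and origin firing genes, 1 was lower (6.67%, against 2.70% of all genes tested) and 0 higher, with a median log2 fold change of -0.64. A single call in a list this short is no result about the list, here and in the lists that follow. The gene was Gmnn, geminin, the inhibitor that holds Cdt1 once origins have fired, at 146, 50.6, 27.2 and 74.3 CPM in WT and 10.4 to 20.2 CPM (median 16.96) in KO (log2 fold change -2.24 ± 0.46 SE, adjusted p = 0.0263 by edgeR). All KO libraries lay below all WT libraries for Gmnn, while Cdt1 overlapped. Of 17 other fork and polymerase genes, 1 was lower (5.88%, against 2.70%). It was Tipin, a fork protection factor, at 106, 67.3, 35.2 and 78.2 CPM in WT and 8.17 to 32.5 CPM (median 15.9) in KO. The log2 fold change of Tipin was -2.06 ± 0.44 (SE) (edgeR adjusted p = 0.0302).

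Of 9 other nucleotide supply genes, 0 passed edgeR's test in either direction (against 2.70% of all genes lower and 0.429% higher). At an unadjusted p under 0.05, 2 were lower and 1 higher, DESeq2 called 1 in each direction, and limma-voom called 1 higher. The most abundant, Samhd1, which breaks down deoxynucleotides, was at 221, 441, 334 and 503 CPM in WT and 94.3 to 267 CPM (median 195) in KO (log2 fold change -0.99 ± 0.33 SE, edgeR adjusted p = 0.15). Of 7 genes for chromatin behind the fork, 1 was lower (14.3%, against 2.70%). It was Asf1b, a histone chaperone, at 384, 173, 105 and 238 CPM in WT and 46.9 to 79.1 CPM (median 65.1) in KO. The log2 fold change of Asf1b was -1.81 ± 0.34 (SE) (edgeR adjusted p = 0.0182). No KO library reached the WT range for Asf1b.

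Of 15 E2F, pocket protein and G1/S cyclin genes, 1 was lower (6.67%, against 2.70% of all genes tested), E2f2, an activating E2F factor. It was at 64.1, 82.5, 69.99 and 87.1 CPM in WT and 8.57 to 29.9 CPM (median 26.9) in KO (log2 fold change -1.76 ± 0.37 SE, adjusted p = 0.0298 by edgeR), and its WT libraries lay within a narrow range above all KO libraries. The 15 genes had a median of -0.34 on the log2 scale, and 10 of them were negative, where 54.3% of all genes tested were.

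Genes of mitosis, which follows replication, were read beside the 43. Of 20, 4 were lower, 0 were higher, and all 20 had negative fold changes, with a median of -2.92 against -1.02 for the replication genes. The 4 were Cdk1, the kinase that drives entry into mitosis, its cyclin Ccnb1, the spindle kinase Aurka and the chromosomal passenger Birc5. Cdk1 was at 290.4, 74.6, 44.7 and 116 CPM in WT and 3.32 to 18.9 CPM (median 9.79) in KO (log2 fold change -3.70 ± 0.62 SE, adjusted p = 0.0113 by edgeR), and it passed in all 10 fits without 1 library. Birc5 passed in 9 of these fits, Aurka in 8 and Ccnb1 in 3. Of the other called genes outside the 43, Asf1b passed in 9, Gmnn in 4, and Tipin and E2f2 in 3 each. Birc5 was at 429, 80.96, 55.9 and 148 CPM in WT and 2.12 to 19.3 CPM (median 11.5) in KO (log2 fold change -4.11 ± 0.76 SE, edgeR adjusted p = 0.0174). Ccnb1 and Aurka had log2 fold changes of -3.59 ± 0.82 (SE) and -2.26 ± 0.42 (SE) (edgeR adjusted p = 0.0414 and 0.0184). The summed level of the 20 genes was 712.0 to 3416 CPM in WT, highest in replicate 1, and 192.2 to 425.9 CPM in KO. The difference between the mitosis and the replication medians was not tested.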

How the data were processed

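The series measured RNA of 6 KO and 4 WT libraries, amplified with SMART-seq V4 and read as 50 bp pairs, per the labels' protocols. The authors deposited raw counts of read pairs per gene, made with featureCounts 1.6.2 on GENCODE M17 (GRCm38.p6), per the file headers. Strand was not set in those commands, and reads with several matches went uncounted. The submitters' processing notes also name STAR and FastQC, with no version. Each table has 53656 genes, with 31939816 to 55784453 counts per library, and 0 sample columns were left unused.

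Counts were scaled with TMM factors, filtered with filterByExpr and tested with edgeR 4.0.16 (R 4.3.3) by its quasi-likelihood test, with genotype as the only term. P-values were adjusted over 14214 genes by Benjamini-Hochberg with a threshold of 0.05. SE was obtained by dividing the log2 fold change by the root of the F statistic. Log2 CPM adds a prior count of 2. DESeq2 1.42.0, limma-voom (limma 3.58.1), RLE factors, other filters, a replicate block, library sets and leaving out each library were alternatives. On simulated data made from these libraries, the test found 0% of the genes given a 2-fold change and 19.3% of those given 4-fold. It found 46.7% for 8-fold and 72% for 16-fold (3 runs, 50 genes per fold with a mean of at least 8 CPM among 14214), and 4.17% of calls were false. The simulated libraries varied independently around the mean of each gene and genotype, with no library sets and no library that stood apart. These rates therefore need not hold for the real libraries.

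Every member is given by role, and values per library are given for each called member and for role representatives chosen with the lists. The members and lists were chosen with earlier results of these data known. Promoter windows came from a RefSeq table of GRCm38.p6. A marker gene is not reported here.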

Additional observations from a re-analysis of the deposited data

Results flagged for a closer look

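Single libraries lay far from the others of their genotype in 11 of 86 groups (43 genes in each of 2 genotypes), where chance gives about 1 in 20. Values are log2 CPM with a prior count of 2 scaled to library size. In WT, replicate 1 lay far below the other 3 libraries for Mcm4 (-3.37) and Rfc1 (-1.56) and far above them for Pole2 (5.53), and replicate 3 lay far above for Pold1 (8.17). In KO, replicate 1 lay far below the other 5 for Prim2 (1.79), Pcna (5.60) and Rfc3 (4.55). KO replicate 3 lay far below for Pold1 (5.66) and Lig1 (3.23), KO replicate 2 for Gins2 (3.08) and KO replicate 6 for Chaf1a (-2.45). Of the 5 genes called lower in KO, none had such a library. The test favours genes with a small spread within genotype, so this is no check of the calls.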

How the results depend on the processing

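Scaling with RLE factors, the stricter filter, no filter and scaling without B cell, plasma cell and myeloid genes left all 5 genes called, with 5 or 6 called in all. The last of these changed only the scaling and not the members' counts, so it does not test the part of other cell types. DESeq2 called 15 members lower and limma-voom 9, with 999 and 680 genes lower and 613 and 204 higher in the whole table. With a term for the library set, 116 genes were higher, and with no filter 39 were. Library numbers 4 to 8 gave 3 members, 1033 genes lower, 121 higher and a member median of -0.80. Library numbers 1 to 3, with 1 WT library that is assumed to vary like the KO libraries, gave 2 members lower, 1 higher (Mcm4), 79 genes lower, 316 higher and a median of -1.43. Leaving out 1 library at a time gave 0 to 11 members lower, 143 to 1201 genes lower, 10 to 443 higher and medians of -1.22 to -0.85; the cause was not tested.

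With a replicate block, by title number or by library number, 0 members passed and 0 genes were lower and 0 higher. In the block by title number, KO replicates 5 and 6 have no WT partner. In the block by library number, only numbers 2 and 6 hold both genotypes, so the other libraries do not enter the fold change. Both blocks leave little with which to measure the spread, so the 0 calls were nearly fixed by the design and decide nothing. Title numbers did not pair the libraries (correlations of deviations 0.29, -0.25, -0.22 and 0.30), and 1 of 4 WT libraries correlated best with its own number. For library numbers 2 and 6, the numbers that both genotypes have, the correlations were 0.32 and 0.13. Hosts received both kinds of cells per the labels, but whether such a number marks a shared mouse is not given in the sources used here.

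Log2 fold changes that turned sign were those of genes that did not pass the main test. In library numbers 1 to 3 they were 4.56 (Orc1), 0.82 (Mcm3), 9.35 (Mcm4), 0.18 (Mcm7), 3.15 (Rfc1), 0.60 (Rpa1) and -0.69 (Slbp). In numbers 4 to 8 they were 0.037 (Pola2), 0.96 (Rfc5) and 1.41 (Dut), and with limma-voom 1.80 (Mcm4), 0.75 (Rfc5) and 1.38 (Dut). With the replicate block by title they were 0.14 (Mcm4), 1.22 (Rfc5) and 2.31 (Dut). With the block by library number they were 2.76 (Orc1), -0.21 (Cdt1), -0.17 (Mcm2), 0.043 (Mcm3), 3.97 (Mcm4), -0.22 (Mcm6), 0.10 (Rpa1) and -0.45 (Slbp). The values of that block rest on library numbers 2 and 6 only. Mcm4 was 0.61 with the library set term, and Gins3 was -0.019 with RLE factors and -0.018 with DESeq2. Without 1 library, Gins3 ranged from -0.31 to 0.76, Rfc5 from -0.55 to 1.43, Dut from -1.22 to 2.53, Chaf1a from -1.65 to 0.087 and Slbp from -0.042 to 0.49. On simulated data, whose libraries varied independently, a 2-fold change was not recovered at this depth and spread.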
